A study of Homo sapiens with 6 samples.

Results

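The genes described here encode 10 cytokines and chemokines that tumour cells are known to secrete: CXCL1, CXCL2, CXCL3, CXCL8, CCL20, IL6, LIF, IL1A, IL1B and CSF2. They were chosen by name, with earlier results of these data known, and all 10 were found among the 17534 genes of the deposited tables. Cells of NCI-H1703, a line labelled as human lung squamous cell carcinoma, were sequenced in 2 groups. The PPM1G shRNA group (3 libraries, labelled Sh-PPM1G) carried a short hairpin RNA against PPM1G, a nuclear serine/threonine phosphatase gene. The control group (3 libraries) is labelled Sh-NC, an abbreviation that the labels do not spell out, while the series text calls these cells wild-type. The number of hairpins or clones, the promoter driving the hairpin and the time after its introduction were not stated in the descriptions used.

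Chemokines are small secreted proteins that draw leukocytes along a concentration gradient. CXCL1, CXCL2, CXCL3 and CXCL8 share a Glu-Leu-Arg motif, bind the receptor CXCR2 and are known for attracting neutrophils, whereas CCL20 acts on CCR6 of dendritic cells and some lymphocytes. IL6 and LIF signal through the shared receptor chain IL6ST to JAK kinases and STAT3, IL1A and IL1B act on IL1R1, and CSF2 is the granulocyte-macrophage growth factor. Transcription of many of these genes is known to be driven by NF-kB, AP-1 and C/EBP factors, and their mRNAs are known to be short-lived through AU-rich elements.

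Between 31337553 and 35838246 reads were counted per library. PPM1G itself had 5879, 7182 and 6985 counts in PPM1G shRNA libraries 1 to 3, against 11411, 10557 and 11157 counts in control libraries 1 to 3, a log2 fold change of −0.77 (SE 0.03). Counts of the squamous genes KRT6A, KRT14, DSG3 and PKP1 ranged from 0 to 7 per library. TP63 had 21 to 60 counts, SOX2, also listed for squamous cells, had 323 to 841, and the simple epithelial keratin KRT8 had 6180 to 7649. Of 7 squamous and epithelial markers tested, KRT7 and KRT18 rose, TP63, SOX2 and KRT8 fell, and 2 did not pass. Of 13 leukocyte markers in the table, MS4A1 had 0 counts in all 6 libraries, which allows up to 3 counts in each, and PTPRC had 0 to 1 counts in PPM1G shRNA libraries and 2 to 5 in control libraries. The 13 markers summed to 13.2 to 15.2 CPM (counts scaled to library size, with TMM factors) in PPM1G shRNA libraries and 10.2 to 12.3 CPM in control libraries, but in FPKM to 7.40 to 9.45 in PPM1G shRNA libraries and 12.4 to 15.4 in control libraries. CD163 made up most of the CPM sum in PPM1G shRNA libraries (9.60 ± 0.98 CPM, against 2.25 ± 0.30 CPM in control libraries), and FCER1G most of it in control libraries (3.45 ± 0.64 CPM in PPM1G shRNA libraries, against 7.74 ± 0.96 CPM in control libraries; SD, n = 3 each). Of the 4 tested, CD163 and ITGAM rose and FCER1G and CSF1R fell. ITGAM had 16, 14 and 17 counts in PPM1G shRNA libraries 1 to 3, against 3, 0 and 0 in control libraries 1 to 3. It passed the filter on low counts only through the PPM1G shRNA libraries. CSF1R did not pass the test without PPM1G shRNA library 2 (edgeR adjusted p = 0.063) or without control library 3 (edgeR adjusted p = 0.13). The 12 endothelial and fibroblast markers summed to 515 to 523 CPM in PPM1G shRNA libraries and 320 to 344 CPM in control libraries. COL1A1 carried this difference (344 ± 5.1 CPM in PPM1G shRNA libraries and 154 ± 9.0 CPM in control libraries), while THY1, the other abundant one, had 156 ± 0.44 CPM in PPM1G shRNA libraries and 161 ± 4.6 CPM in control libraries (SD, n = 3 each). CDH5 had 0 to 3 counts and LUM 0 to 1, and of 7 tested VWF, KDR, PDGFRB and COL1A1 rose and PECAM1 and COL1A2 fell. KDR had 12, 18 and 16 counts in PPM1G shRNA libraries 1 to 3, against 2, 4 and 7 in control libraries 1 to 3. Only through the PPM1G shRNA libraries did KDR pass the filter. Of all genes tested, 41.5% rose and 41.3% fell, and the part of these markers in the results was not tested. Fewer cells that make a transcript and less of it per cell cannot be told apart in these bulk libraries. Whether the 3 libraries of a group are separate cultures is not labelled, and the p-values then cover no more than library-to-library spread, which may be technical.

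Sequences upstream of the transcript starts are shown first for CXCL1, CXCL2 and CXCL3, because these neighbouring paralogs have similar promoters and moved in different directions, and for IL6, which had the steepest change. Each window runs from 250 bases before the start to 50 bases from it (RefSeq, build GRCh38.p14), 5′ to 3′ along the gene. Capitals mark matches, on either strand, to the NF-kB letters GGNNTTTCC, the AP-1 letters TGANTCA, the CRE letters GACGTCA, the C/EBP letters TTGCNNAA, the C/EBP-ATF letters TGATGNAA and the STAT letters TTCNNNGAA.
CXCL1, chr4:73869143-73869442, plus strand: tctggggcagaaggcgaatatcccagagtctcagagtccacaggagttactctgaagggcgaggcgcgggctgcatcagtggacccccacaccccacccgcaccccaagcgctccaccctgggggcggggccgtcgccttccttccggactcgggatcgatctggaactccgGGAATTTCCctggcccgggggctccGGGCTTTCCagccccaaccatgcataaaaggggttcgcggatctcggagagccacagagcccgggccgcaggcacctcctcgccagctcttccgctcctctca
CXCL2, chr4:74099146-74099445, minus strand: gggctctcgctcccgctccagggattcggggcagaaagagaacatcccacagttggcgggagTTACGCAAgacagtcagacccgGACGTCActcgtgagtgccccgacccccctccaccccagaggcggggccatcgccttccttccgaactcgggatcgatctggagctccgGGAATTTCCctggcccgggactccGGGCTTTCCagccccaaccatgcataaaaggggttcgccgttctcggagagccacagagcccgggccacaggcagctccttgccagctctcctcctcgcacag
CXCL3, chr4:74038640-74038939, minus strand: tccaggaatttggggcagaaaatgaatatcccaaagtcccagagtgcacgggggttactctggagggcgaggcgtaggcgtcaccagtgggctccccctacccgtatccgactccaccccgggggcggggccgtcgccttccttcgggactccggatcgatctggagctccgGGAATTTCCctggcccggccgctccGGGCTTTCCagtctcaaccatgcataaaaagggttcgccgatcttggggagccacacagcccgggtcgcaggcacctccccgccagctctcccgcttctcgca
IL6, chr7:22726950-22727249, plus strand: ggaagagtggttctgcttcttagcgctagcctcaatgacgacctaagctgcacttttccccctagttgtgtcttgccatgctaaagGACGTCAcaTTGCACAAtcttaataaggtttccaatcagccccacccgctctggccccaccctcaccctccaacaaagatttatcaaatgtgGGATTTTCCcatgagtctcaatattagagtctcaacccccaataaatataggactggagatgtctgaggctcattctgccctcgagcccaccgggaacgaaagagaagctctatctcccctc

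The CXCL1 and CXCL3 windows were identical at 86.6% of 292 aligned bases, CXCL1 and CXCL2 at 85.1% of 269, and CXCL2 and CXCL3 at 83.6% of 281. Each of the 3 windows holds the 23-base stretch CTCCGGGAATTTCCCTGGCCCGG, which starts 83, 82 and 83 bases upstream in CXCL1, CXCL2 and CXCL3. Within it lie NF-kB letters, and each window holds a second NF-kB match 53 bases upstream. The CXCL2 window also holds CRE letters 166 bases upstream and C/EBP letters 188 bases upstream, which the CXCL1 and CXCL3 windows do not hold. The IL6 window holds NF-kB letters 72 bases upstream, CRE letters 164 upstream and C/EBP letters 155 upstream. Of the 9 genes with a promoter entry (all but LIF), NF-kB letters were in the windows of 6, against 6.26% of all 35116 promoter windows of the same length. AP-1 letters were in 2 (CXCL8 and IL1A; 7.71% of all windows), CRE letters in 2 (IL6 and CXCL2; 3.45%), C/EBP letters in 3 (IL6, CXCL2 and IL1B; 10.46%), STAT letters in 2 (IL1B and CSF2; 7.66%) and C/EBP-ATF letters in 0 (3.62%). No matches overlapped one another in these windows. A match describes letters in the window and is not a binding site.

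**Figure D1:**
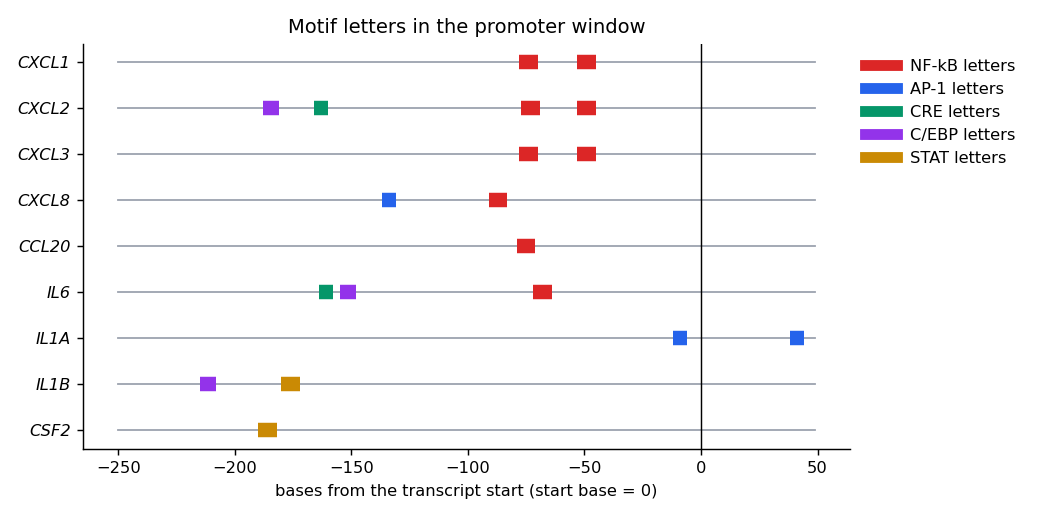
Motif letters in the promoter windows of 9 genes, with IL1A at the first of its 2 listed starts. The x axis is the distance in bases from the transcript start, and coloured blocks are matches on either strand. CXCL1, CXCL2 and CXCL3 share a pair of NF-kB matches, and CXCL2 alone of these 3 also has CRE and C/EBP matches.

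The 10 transcripts did not move as a block. IL6, LIF, IL1A, CXCL2 and CXCL3 rose in PPM1G shRNA libraries, CXCL1, CXCL8, CCL20 and CSF2 fell, and IL1B did not pass the test. All 10 passed the filter on low counts. A rise in 5 of 10 stands beside 41.5% of all 13060 genes tested that rose, and a fall in 4 of 10 beside 41.3% that fell (82.9% in either direction, edgeR's quasi-likelihood test, adjusted p under 0.05). Both shares are near those of all genes. Of the 10, 6 changed by at least 2-fold, beside 24.2% of all genes tested. The 10 were chosen with earlier results of these data known, so this share is descriptive and was not tested. The groups' libraries did not overlap on the CPM scale for any of the 10, beside 83.7% of all genes tested. The median log2 fold change of the 10 was 0.25, beside 0.01 for all genes tested.

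**Figure D2:**
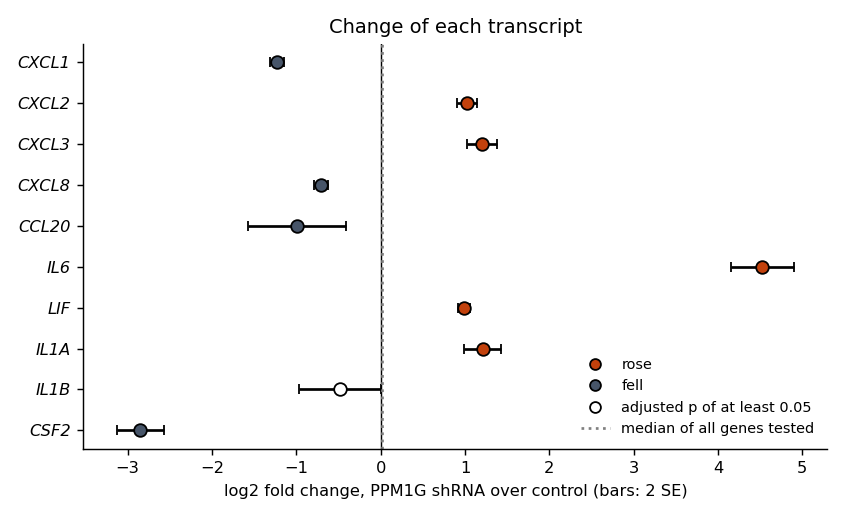
Log2 fold change of each transcript, PPM1G shRNA over control, with bars of 2 SE. Filled points passed edgeR's test, the open point is IL1B, and the dotted line is the median of all genes tested. IL6 lies farthest to the right at 4.53 and CSF2 farthest to the left at −2.85.

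Among the neutrophil-attracting chemokines, CXCL1 (Entrez 2919; chromosome 4, positions 73869393 to 73871308; RefSeq positions in build GRCh38, as for each gene that follows) fell. It had 1987, 2209 and 2227 counts in PPM1G shRNA libraries 1 to 3, against 5001, 4881 and 4707 in control libraries 1 to 3. Every PPM1G shRNA library lay below every control library. The means were 60.4 ± 0.94 CPM in PPM1G shRNA libraries and 142 ± 4.7 CPM in control libraries (SD, n = 3 each), a log2 fold change of −1.23 (SE 0.04, edgeR adjusted p = 7.27e-24).

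CXCL2 (Entrez 2920; chromosome 4, positions 74097040 to 74099195) rose. Its counts were 1368, 1527 and 1765 in PPM1G shRNA libraries 1 to 3, against 734, 755 and 726 in control libraries 1 to 3. The highest PPM1G shRNA library was library 3, and the groups did not overlap. It averaged 43.7 ± 3.4 CPM in PPM1G shRNA libraries and 21.5 ± 0.47 CPM in control libraries (SD, n = 3 each), a log2 fold change of 1.02 (SE 0.06, edgeR adjusted p = 1.72e-16).

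CXCL3 (Entrez 2921; chromosome 4, positions 74036589 to 74038689) rose as well, with 646, 655 and 636 counts in PPM1G shRNA libraries 1 to 3, against 286, 274 and 259 in control libraries 1 to 3. The libraries of a group lay close together and the groups did not overlap. The log2 fold change was 1.20 (SE 0.09, edgeR adjusted p = 5.76e-14), at 18.3 ± 1.5 CPM in PPM1G shRNA libraries and 7.95 ± 0.41 CPM in control libraries (SD, n = 3 each).

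CXCL8 (Entrez 3576; chromosome 4, positions 73740569 to 73743716), which encodes interleukin-8, fell with CXCL1 but by less. It had 1999, 2470 and 2307 counts in PPM1G shRNA libraries 1 to 3, against 3571, 3700 and 3414 in control libraries 1 to 3. No PPM1G shRNA library reached the lowest control library. Levels were 63.5 ± 2.8 CPM in PPM1G shRNA libraries and 104 ± 4.4 CPM in control libraries (SD, n = 3 each), a log2 fold change of −0.71 (SE 0.04, edgeR adjusted p = 3.69e-16).

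These 4 genes lie in 1 chemokine cluster on chromosome 4. CXCL8 is followed by CXCL1 after 125.7 kb and CXCL1 by CXCL3 after 165.3 kb, and CXCL2 lies 58.4 kb beyond CXCL3. CXCL8 and CXCL1 are on the plus strand, and CXCL3 and CXCL2 are on the minus strand. CXCL5, a further neutrophil chemokine gene between CXCL1 and CXCL3 on the minus strand, had 77, 81 and 45 counts in PPM1G shRNA libraries 1 to 3, against 109, 116 and 128 in control libraries 1 to 3, and fell (log2 fold change −0.84, SE 0.21, edgeR adjusted p = 0.000592). CXCL6, between CXCL8 and CXCL1, had 0 counts in all 6 libraries, which allows up to 3 counts in each. PF4, which encodes platelet factor, had 2, 3 and 8 counts in PPM1G shRNA libraries 1 to 3, against 4, 7 and 16 in control libraries 1 to 3, and was under the filter. Along the cluster, the genes that fell (CXCL8, CXCL1 and CXCL5) came first and the pair that rose (CXCL3 and CXCL2) came last.

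The balance among the 4 transcripts differed between the groups. Levels of different genes were compared per length, as FPKM (fragments per kilobase of transcript, scaled to library depth). The CXCL2 to CXCL1 FPKM ratio was 0.725, 0.728 and 0.834 in PPM1G shRNA libraries 1 to 3, against 0.155, 0.163 and 0.162 in control libraries 1 to 3. CXCL1 made up 35.1% ± 0.55 of the summed FPKM of the 4 transcripts in PPM1G shRNA libraries and 57.3% ± 0.64 in control libraries (SD, n = 3 each). The share of CXCL2 was 26.8% ± 1.9 in PPM1G shRNA libraries and 9.16% ± 0.20 in control libraries (SD, n = 3 each). The share of CXCL3 was 11.6% ± 0.97 in PPM1G shRNA libraries and 3.51% ± 0.089 in control libraries, and that of CXCL8 was 26.5% ± 1.4 in PPM1G shRNA libraries and 30.01% ± 0.60 in control libraries (SD, n = 3 each). The summed FPKM of the 4 was 151 ± 1.3 in PPM1G shRNA libraries and 203 ± 6.7 in control libraries (SD, n = 3 each). These shares were not tested, since the genes were chosen with earlier results known.

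**Figure D3:**
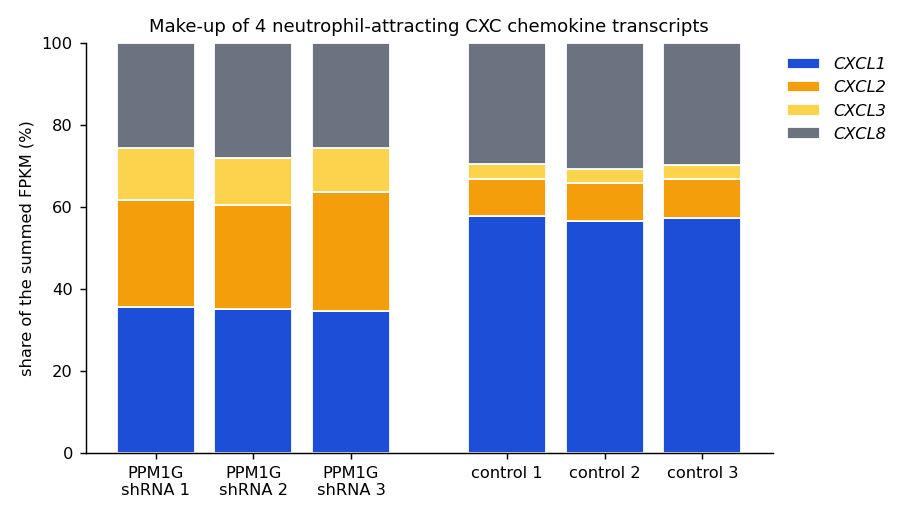
Share of CXCL1, CXCL2, CXCL3 and CXCL8 in their summed FPKM, in percent, for each library. CXCL1 takes 34.6% to 35.7% in the 3 PPM1G shRNA libraries and 56.6% to 57.9% in the 3 control libraries.

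CXCL1, CXCL2 and CXCL3 have similar mRNAs, so reads could have been assigned to the wrong paralog. The longest annotated coding transcripts (GENCODE 29) were identical at 90.5% of 1086 aligned bases for CXCL1 and CXCL2, at 81.7% of 1001 for CXCL1 and CXCL3 and at 83.3% of 1014 for CXCL2 and CXCL3. Of all 50-base stretches, 5.73% of those of CXCL1, 9.24% of those of CXCL2 and 5.26% of those of CXCL3 also occur in another of the 3. No 100-base stretch of any of them occurs in a transcript of another gene. How the authors' counting treated shared reads is not given here, and its part in the counts was not tested.

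CCL20 (Entrez 6364; chromosome 2, positions 227813842 to 227817556) was a rare transcript and fell. It had 21, 24 and 30 counts in PPM1G shRNA libraries 1 to 3, against 59, 41 and 44 in control libraries 1 to 3. The highest control library was library 1. The log2 fold change was −0.99 (SE 0.29, edgeR adjusted p = 0.00256), at 0.702 ± 0.092 CPM in PPM1G shRNA libraries and 1.40 ± 0.28 CPM in control libraries (SD, n = 3 each). By limma on log2(FPKM + 1) the difference was −0.48.

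Of the cytokines that signal through IL6ST, IL6 (Entrez 3569; chromosome 7, positions 22727200 to 22731998) had the steepest change among the 10, and its size ranked 38 of 13060 genes tested. It had 348, 394 and 409 counts in PPM1G shRNA libraries 1 to 3, against 22, 17 and 9 in control libraries 1 to 3. The control libraries were near the limit of detection, and the PPM1G shRNA libraries varied little. The estimated level was 23.0-fold that of the control libraries (95% interval 17.9 to 29.6), a log2 fold change of 4.53 (SE 0.19, edgeR adjusted p = 8.09e-21). By limma on log2(FPKM + 1), a scale that understates changes of low transcripts, the difference was 2.59, and on log2(FPKM + 0.1) it was 4.24. The IL6 locus overlaps STEAP1B and a GENCODE antisense RNA gene on the opposite strand. STEAP1B had 1 to 2 counts in PPM1G shRNA libraries and 3 to 5 in control libraries. Of the 50-base stretches of the IL6 transcript, 22.4% lie in the antisense gene's transcripts, and reads of the 2 strands cannot be told apart here because no strand setting is stated.

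LIF (Entrez 3976; chromosome 22, positions 30240453 to 30246759), a cytokine known for keeping stem cells undifferentiated and for its part in cachexia, had far more counts and a smaller rise. It had 5560, 6194 and 6193 counts in PPM1G shRNA libraries 1 to 3, against 2935, 2795 and 3020 in control libraries 1 to 3. Every PPM1G shRNA library exceeded every control library. The level was 169 ± 2.8 CPM in PPM1G shRNA libraries and 84.9 ± 3.2 CPM in control libraries (SD, n = 3 each), a log2 fold change of 0.99 (SE 0.04, edgeR adjusted p = 4.4e-22). LIF-AS1 and a further antisense gene overlap LIF on the opposite strand. The ratio of LIF to IL6, in FPKM, was 6.43, 6.33 and 6.09 in PPM1G shRNA libraries 1 to 3, against 53.7, 66.2 and 135 in control libraries 1 to 3.

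IL1A and IL1B are neighbours on chromosome 2, 45.3 kb apart on the minus strand, and encode the ligands of IL1R1. IL1A (Entrez 3552; positions 112773925 to 112784493) rose. It had 377, 516 and 427 counts in PPM1G shRNA libraries 1 to 3, against 170, 197 and 185 in control libraries 1 to 3. Library 2 was the highest of the PPM1G shRNA libraries, and the groups did not overlap. The log2 fold change was 1.21 (SE 0.11, edgeR adjusted p = 5.92e-12).

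IL1B (Entrez 3553; positions 112829751 to 112836779) had 32, 66 and 63 counts in PPM1G shRNA libraries 1 to 3, against 79, 69 and 68 in control libraries 1 to 3. PPM1G shRNA library 1 was far below the others of its group. Means were 1.49 ± 0.44 CPM in PPM1G shRNA libraries and 2.10 ± 0.18 CPM in control libraries (SD, n = 3 each), and the log2 fold change of −0.48 (SE 0.24) did not pass the test (edgeR adjusted p = 0.0667). The estimate was 0.716 of the control level, and the unadjusted p was 0.056 (edgeR). The 95% interval of 0.515 to 0.996 takes a normal approximation and is narrower than that test allows. Without PPM1G shRNA library 1 the log2 fold change was −0.27 (edgeR adjusted p = 0.302), and without library 2 it was −0.63 and passed (edgeR adjusted p = 0.0353). The IL1A to IL1B FPKM ratio was 8.80, 5.84 and 5.06 in PPM1G shRNA libraries 1 to 3, against 1.61, 2.13 and 2.03 in control libraries 1 to 3.

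CSF2 (Entrez 1437; chromosome 5, positions 132073789 to 132076170) had the steepest fall of the 10. It had 55, 48 and 65 counts in PPM1G shRNA libraries 1 to 3, against 387, 413 and 374 in control libraries 1 to 3. No library of either group came near the other group. The level was 0.139 of that of control libraries (95% interval 0.115 to 0.168), a log2 fold change of −2.85 (SE 0.14, edgeR adjusted p = 8.12e-19). IL6 to CSF2 FPKM ratios were 2.94, 3.81 and 2.92 in PPM1G shRNA libraries 1 to 3, against 0.0264, 0.0191 and 0.0112 in control libraries 1 to 3.

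**Figure D4:**
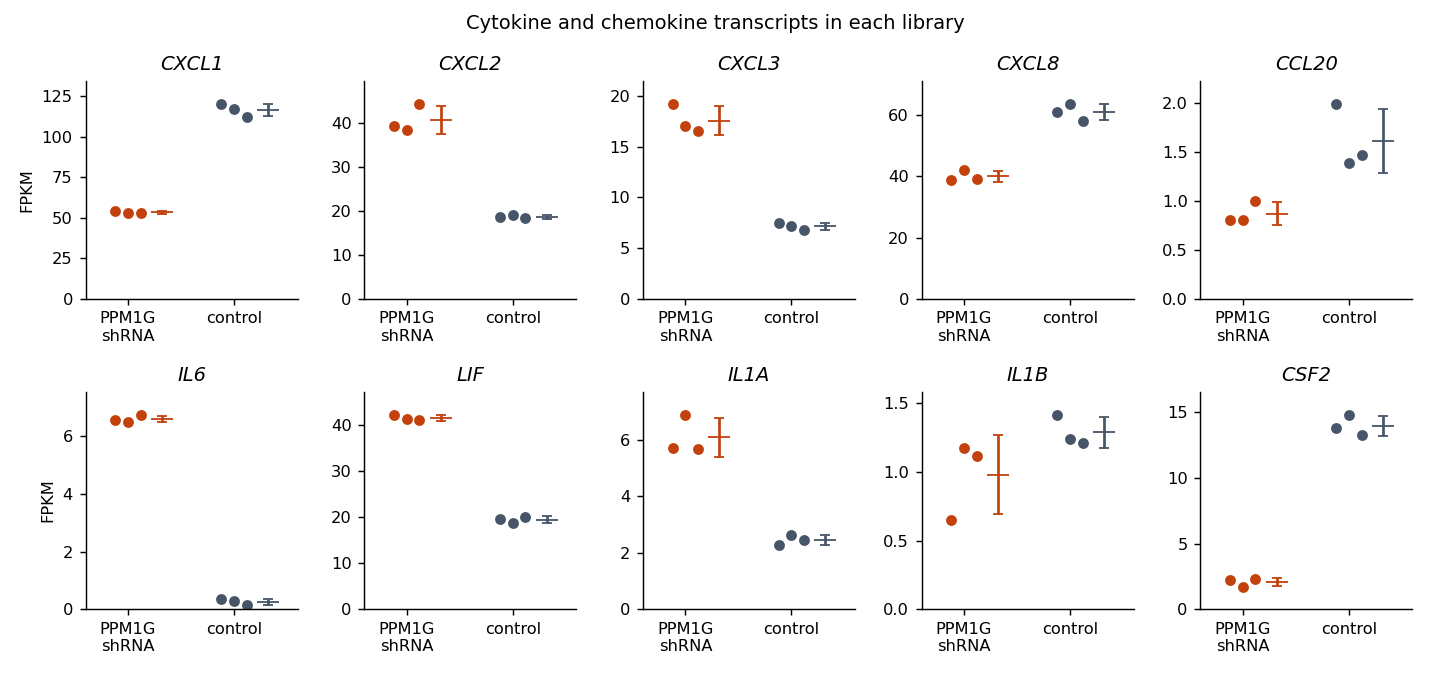
FPKM of each transcript in each library (points), with the mean and SD beside them, PPM1G shRNA left of control, on linear axes from 0. IL6, LIF, IL1A, CXCL2 and CXCL3 are higher in all 3 PPM1G shRNA libraries, and PPM1G shRNA library 1 is the lowest for IL1B at 0.65 FPKM.

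Ordered by level per length, CXCL1 stood first in both groups, at 53.2 ± 0.70 FPKM in PPM1G shRNA libraries and 116 ± 3.9 FPKM in control libraries (SD, n = 3 each). In PPM1G shRNA libraries it was followed by LIF (41.4 ± 0.59 FPKM), CXCL2 (40.6 ± 3.2 FPKM) and CXCL8 (40.1 ± 1.8 FPKM), whose libraries overlapped. CXCL3 came next at 17.6 ± 1.4 FPKM, then IL6 (6.59 ± 0.12 FPKM) and IL1A (6.09 ± 0.68 FPKM), which overlapped. CSF2 (2.08 ± 0.32 FPKM), IL1B (0.982 ± 0.29 FPKM) and CCL20 (0.871 ± 0.11 FPKM) were last, of which IL1B and CCL20 overlapped. In control libraries CXCL1 was followed by CXCL8 at 61.0 ± 2.7 FPKM, and by LIF (19.5 ± 0.69 FPKM) and CXCL2 (18.6 ± 0.44 FPKM), which overlapped. CSF2 stood at 13.96 ± 0.76 FPKM, CXCL3 at 7.14 ± 0.37 FPKM and IL1A at 2.46 ± 0.18 FPKM. CCL20 (1.62 ± 0.33 FPKM) and IL1B (1.29 ± 0.11 FPKM) overlapped, and IL6 was last at 0.265 ± 0.11 FPKM. IL6 was thus the sixth in the order in PPM1G shRNA libraries and the tenth in control libraries, and CSF2 was the eighth in PPM1G shRNA libraries and the fifth in control libraries.

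The transcripts share a sequence feature for which cytokine mRNAs were already known when these genes were chosen by name. Its frequency among them is therefore descriptive and was not tested. All 10 hold the letters TATTTAT, the core of an AU-rich element, at least once on the sense strand of the longest annotated coding transcript (GENCODE 29), with 42 matches in all, every one of them starting in the 3′ untranslated region. The share was 34.3% among 19652 protein-coding genes and 10.4% among the 4857 genes with a transcript of up to 1800 bases, a class to which 8 of the 10 belong. CXCL2 held 8 matches, CSF2 7, LIF 5, CXCL1, CXCL8 and IL1B 4 each, IL6, CXCL3 and IL1A 3 each, and CCL20 1. Transcripts that rose and transcripts that fell both held them. The 30-base stretch of the 3′ untranslated region with the most matches is shown for 5 of them, with ATTTA in capitals.
CXCL2: agtcttctATTTATTTATTTATTTATTTAt
CXCL1: ttaggagaagtcttctATTTATTTATTTAt
CXCL3: tacgagggttctacttATTTAtgtATTTAt
IL6: tttttaaagaaatATTTAtattgtATTTAt
CSF2: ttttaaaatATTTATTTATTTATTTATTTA

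CXCL2, which rose, and CSF2, which fell, both hold 5 overlapping ATTTA copies in such a stretch, and CXCL1, which fell, holds 3. In the deposited KEGG annotation, all 10 genes belong to cytokine-cytokine receptor interaction (240 genes annotated) and 9 to rheumatoid arthritis (all but LIF, 85 genes annotated). The IL-17 pathway (85 genes annotated) holds 8 of them, all but IL1A and LIF. The TNF pathway (112 genes annotated) holds 8 as well, all but CXCL8 and IL1A.

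Among 46 other cytokine and chemokine genes, 22 were tested, of which 10 rose and 10 fell (45.5% each, beside 41.5% and 41.3% of all genes tested). CXCL5, described above with its chemokine cluster, is among these falls. The median log2 fold change of the 22 was 0.26, beside 0.01 for all genes tested. IL24, a cytokine of the interleukin-10 family, fell (log2 fold change −3.23, SE 0.11), with 73, 67 and 94 counts in PPM1G shRNA libraries 1 to 3, against 698, 725 and 707 in control libraries 1 to 3. IL18, a cytokine matured by caspase-1, fell as well (−1.52, SE 0.12). CCL5, a chemokine for T cells, rose at very low counts (27, 28 and 20 in PPM1G shRNA libraries, against 7, 6 and 1 in control libraries; log2 fold change 2.35, SE 0.49). IL23A, a subunit of interleukin-23, had 46, 69 and 62 counts in PPM1G shRNA libraries 1 to 3, against 15, 12 and 8 in control libraries 1 to 3, and rose. TNF had 1 count in each PPM1G shRNA library and 0 in each control library, and was not tested.

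Of the receptors and antagonists of the 10, 5 of 13 genes were tested, of which 3 fell and 0 rose by edgeR's test (0 rose at an unadjusted p under 0.05, and 0 by DESeq2). Of all genes tested, 41.3% fell and 41.5% rose. IL6R, the binding chain for IL6, fell (log2 fold change −1.20, SE 0.09), at 8.65 ± 0.65 CPM in PPM1G shRNA libraries and 19.9 ± 1.9 CPM in control libraries (SD, n = 3 each). IL1R1 (−0.63, SE 0.05) and its co-receptor IL1RAP (−0.40, SE 0.05) fell too. The shared chain IL6ST had a log2 fold change of −0.03 (edgeR adjusted p = 0.486) and the LIF receptor LIFR one of 0.04 (edgeR adjusted p = 0.563). CXCR2, the receptor of the neutrophil chemokines, had 0 to 1 counts per library in both groups, and CCR6 had 1 to 4 counts in PPM1G shRNA libraries and 0 to 2 in control libraries.

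Of 28 tested genes that signal downstream of these receptors, 14 rose and 10 fell (median log2 fold change 0.08). These shares of 50% and 35.7% stand beside 41.5% and 41.3% of all genes tested. STAT3, the transcription factor of the IL6 family, rose to 279 ± 3.8 CPM in PPM1G shRNA libraries, against 91.6 ± 2.5 CPM in control libraries (SD, n = 3 each; log2 fold change 1.61, SE 0.03). The feedback inhibitor SOCS1 fell (−1.77, SE 0.13) and SOCS2 rose (1.05, SE 0.23), as did SOCS3 (1.01, SE 0.08). IRAK1, a kinase of the interleukin-1 receptor complex, fell (−1.09, SE 0.03).

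Of 16 genes for NF-kB subunits and inhibitors, 12 rose and 3 fell (75% and 18.75%, beside 41.5% and 41.3% of all genes tested). Their median log2 fold change was 0.51. BIRC3 (1.21, SE 0.11), the inhibitor NFKBIB (1.20, SE 0.08), the subunit RELB (1.07, SE 0.07) and the co-regulator BCL3 (1.01, SE 0.04) rose most. The subunit genes NFKB1 and RELA, with TNIP1, were those that fell, though TNIP1 (−0.14, SE 0.04) did not pass with plain library totals (−0.04, edgeR adjusted p = 0.317). Of 14 tested AP-1 and C/EBP genes, 11 rose and 3 fell (78.6% and 21.4%, median 1.39), beside 41.5% and 41.3% of all genes tested. DDIT3 (3.68, SE 0.08), ATF3 (3.34, SE 0.05) and CEBPB (1.89, SE 0.05) rose, whereas the AP-1 subunit FOSL1 fell to 187 ± 6.7 CPM in PPM1G shRNA libraries, against 783 ± 52 CPM in control libraries (SD, n = 3 each; log2 fold change −2.07, SE 0.04). FOS and FOSB also fell.

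Factors that act on AU-rich and stem-loop elements of cytokine mRNAs rose in 10 and fell in 7 of 17 tested genes (median log2 fold change 0.46). These shares are 58.8% and 41.2%, beside 41.5% and 41.3% of all genes tested. The endoribonuclease gene ZC3H12A, known to cleave IL6 mRNA, rose (0.99, SE 0.08), as did its relatives ZC3H12D (2.25, SE 0.16) and ZC3H12C (1.13, SE 0.04). ZFP36L1, an AU-rich element binding protein, fell to 775 ± 12 CPM in PPM1G shRNA libraries, against 1586 ± 31 CPM in control libraries (SD, n = 3 each; log2 fold change −1.03, SE 0.03). Genes for interleukin-1 processing and release rose in 4 and fell in 8 of 16 tested (25% and 50%, median −0.19). Of all genes tested, 41.5% rose and 41.3% fell. The inflammasome sensor NLRP3 (−2.24, SE 0.38, 3 to 13 counts in PPM1G shRNA libraries and 39 to 44 in control libraries), the adaptor PYCARD (−1.86, SE 0.54) and the calpain subunit CAPN2 (−1.24, SE 0.03), of a protease family that cleaves the IL1A precursor, fell, and the sensor NLRP1 rose (1.48, SE 0.06). In PYCARD, PPM1G shRNA library 3 had 19 counts and libraries 1 and 2 had 2 each, against 37, 19 and 25 in control libraries 1 to 3. Without PPM1G shRNA library 3 its log2 fold change was −3.69.

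**Figure D5:**
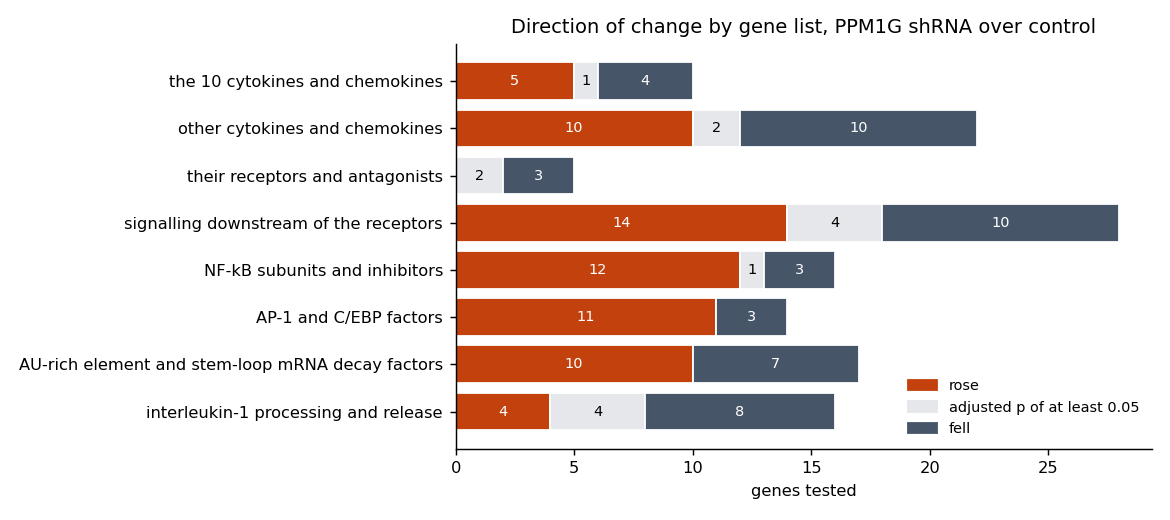
Number of tested genes that rose, did not pass edgeR's test or fell in each gene list, PPM1G shRNA over control. The 10 cytokines and chemokines divide into 5 rises, 4 falls and 1 that did not pass, and NF-kB genes into 12 rises, 3 falls and 1 that did not pass. Of all genes tested, 41.5% rose and 41.3% fell.

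The genes with profiles over the 6 libraries nearest to those of IL6 and CXCL8 were sought among 12078 genes. They were found by the root mean square difference of centred log2(CPM + 0.5). For IL6 they were INHBE (difference 0.17), which encodes an activin subunit, the transcription factor gene ATF3 (0.19) and GDF15 (0.20), a secreted TGF-beta family member. For CXCL8 they were SELENOT (0.03), CTNNAL1 (0.03) and SSU72 (0.03). With 2 groups, nearness mainly reflects a change of like size on this scale. The added 0.5 lowers the change of IL6, which had 0.466 CPM in control libraries. In edgeR's fit the log2 fold changes were 3.89 for INHBE, 3.34 for ATF3 and 3.85 for GDF15, against 4.53 for IL6.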

How the data were processed

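RNA of NCI-H1703 cells was sequenced in 3 PPM1G shRNA and 3 control libraries. The authors deposited raw read counts per gene and FPKM values per gene and library, aligned to GRCh38 per the submitters' processing notes. No aligner, counting tool or strand setting is given in the sources used here. Libraries held 31337553 to 35838246 counts, where 3 counts correspond to 0.0808 to 0.0927 CPM. Such floors cover counting error only.

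Counts were tested with edgeR 4.0.16 (R 4.3.3): genes under the filter of filterByExpr (minimum count 10) were left out, libraries were scaled by TMM, and the robust quasi-likelihood test compared the groups with no other term. P-values were adjusted by Benjamini-Hochberg over 13060 genes, with 0.05 as the threshold. The SE was taken from the size of the log2 fold change and the root of its F statistic. The 95% intervals take a normal approximation from that SE and are narrower than the test allows. The edgeR steps were run on simulated counts in which few genes changed. That run does not check the scaling for data such as these, where 82.9% of genes tested were called. DESeq2 1.42.0 and limma 3.58.1 on log2(FPKM + 1) and log2(FPKM + 0.1) were alternatives, beside other scalings, filters, a replicate block and leaving out each library. No pair of libraries agreed within sampling noise. FPKM, which carries no TMM scaling, was used for levels between genes, ratios, shares, sums over genes and the limma alternatives.

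The 10 genes and the gene lists were chosen with earlier results of these data known. From each list, up to 4 genes past the threshold with the steepest changes were named. Others were named after their values were seen, namely genes under the filter, SOCS3, FOS, FOSB, NFKB1, RELA, TNIP1, COL1A1, COL1A2, THY1, CXCL11, KRT18, IL6ST and LIFR. Motifs and AU-rich elements were searched in RefSeq promoters and GENCODE 29 transcripts with Python 3.11.15.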

Additional observations from a re-analysis of the deposited data

How the results depend on the processing

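Of 1255 values recomputed for 90 results under alternatives, 1237 kept their direction and side of the threshold, or a count within 1.5 times, and 0 reversed. A gene that an alternative left untested gave no value there and was not counted as changed. The filter of CPM of at least 1 in 3 libraries did so for genes of low counts, such as CCL5, ITGAM and KDR. Of single genes, CSF1R lost its call in 3 alternatives, TNIP1 in 3, and KRT8 and NFKB1 in 1 each. The 10 cytokines and chemokines had 5 rises under every alternative run, and 4 to 5 falls. The fifth fall was IL1B, whose log2 fold change ranged between −0.63 and −0.27 with 1 library left out. It passed only without PPM1G shRNA replicate 2 (edgeR adjusted p = 0.0353; range over all alternatives 0.0353 to 0.302).

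Among lists, that of other CXC chemokine genes, which also holds genes outside the stretch from CXCL8 to CXCL2, had 1 rise with no filter and 1 with DESeq2, against 0. Both times it was CXCL11, with 2 to 12 counts in PPM1G shRNA libraries and 1 to 2 in control libraries. With plain library totals the receptors had 1 rise, against 0. By limma on log2(FPKM + 1), 1 NF-kB gene fell, against 3. With a filter of CPM of at least 1 in 3 libraries, 1 leukocyte marker rose and 1 fell, against 2 and 2. With DESeq2 1 leukocyte marker fell, and leaving out 1 library gave 1 to 2 falls, with 1 without PPM1G shRNA library 2 or control library 3. The part of the fits in these counts was not tested. Plain library totals put the median log2 fold change of all genes at 0.12, beside 0.01, and 55.9% of calls were then rises, beside 50.1%.

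Libraries with the same number did not deviate together (correlations 0.0142, −0.0203 and 0.00364), so the numbers were not read as pairs, and not every library correlated best with its own number. With the replicate block, 5 of the 10 rose and 4 fell, and over all genes 5423 rose and 5382 fell, beside 5422 and 5399 without it. By limma on log2(FPKM + 1) the difference of IL6 was 2.59, beside 4.53, and that of CCL20 −0.48, beside −0.99. Depth limits IL1B, CCL20, the control level of IL6 and the PPM1G shRNA level of CSF2, which rest on 9 to 79 counts a library.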
